A study of Mus musculus with 12 samples.

Results

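The 10 genes described here belong to bone morphogenetic protein (BMP) signalling and were followed in the embryonic mouse cortex, among 55357 genes listed in the count files. Members were chosen by gene name, and each of the 10 names matched 1 row. They are the ligands Bmp4 and Bmp7, the type I receptors Bmpr1a and Bmpr1b, the inhibitory Smads Smad6 and Smad7, and the targets Id1, Id2, Id3 and Id4. Messenger RNA was sequenced from cortices dissected together with the hippocampal formation at E17.5 and divided into rostral and caudal parts. Knockout embryos carried a Nestin-Cre transgene and were homozygous for floxed Egfr (Egfr F/F), which encodes the EGF receptor, and control embryos were heterozygous (Egfr F/+). The titles give 12 libraries from 6 embryos, 3 for each combination of genotype and part. Libraries are named here by genotype, labelled part and embryo number. The Nestin promoter drives Cre in neural progenitors, so vascular, meningeal and blood cells of a knockout embryo are outside its main domain. Whether control embryos carry Cre is not given in the sources used here, so an effect of Egfr loss and an effect of the transgene cannot be told apart.

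In this pathway a secreted BMP dimer brings type I and type II serine/threonine kinase receptors together, and the type I receptor phosphorylates Smad1, Smad5 or Smad9, which enter the nucleus with Smad4. Smad6 and Smad7 are induced by the signal and feed back on it at the receptor. The Id genes are widely used as readouts of the pathway: their products have a helix-loop-helix domain without a basic DNA-binding region, and hold E proteins such as Tcf3, Tcf4 and Tcf12 away from proneural and glial basic helix-loop-helix (bHLH) factors. In the forebrain, BMPs come from the dorsal midline, the choroid plexus and the meninges, and late in embryonic life the pathway is known for its part in astrocyte formation.

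Library totals lay between 25.2 and 30.4 in units of 1000000 counts. Egfr was at 3.60 to 7.33 CPM (the count scaled to a library total of 1000000) in the 6 knockout libraries and at 19.2 to 41.6 CPM in the 6 control libraries, so the genotypes did not overlap. Transcripts that should be alike in both parts of 1 embryo, Xist and 4 genes of the Y chromosome, were of the same kind in 1 of the 6 titled embryos and of different kinds in 5. Nr2f1, whose known cortical gradient falls from caudal to rostral, ran from 50.7 to 348 CPM in libraries labelled rostral and from 58.6 to 373 CPM in libraries labelled caudal. The label of a part and the pairing of parts are therefore used as titled and not as established, and n = 3 counts libraries or titled sums rather than embryos. Markers of cortical excitatory neurons were present in all libraries, with Neurod6 at 513 CPM or more, and markers of ventral forebrain summed to 251 to 1254 CPM. That list includes Dlx1, Gad1 and Lhx6, so it cannot tell neighbouring ventral tissue from GABAergic interneurons within the cortex. Mitochondrial genes took 7.25% of the counts in the library labelled knockout rostral 7 and 4.77% in the one labelled knockout caudal 5, against at most 3.53% in the others.

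Per unit of length, the members covered a wide range of levels. Levels were compared between genes as CPM per kilobase of annotated exons. Id2 was the most abundant at 100.8 ± 15.8 CPM per kilobase (SD, n = 12 libraries), followed by Id4 at 25.97 ± 10.4 and Bmpr1a at 20.5 ± 2.32. Id1 (6.27 ± 1.75), Id3 (4.77 ± 2.29), Bmpr1b (3.06 ± 1.04) and Smad7 (2.76 ± 0.400) came next, then Bmp7 (1.56 ± 0.414) and Smad6 (0.878 ± 0.277). Bmp4 was last at 0.0386 ± 0.0403 CPM per kilobase. The ranges over the 12 libraries separated Id2 from Id4, Bmpr1a from Id1, and Smad6 from Bmp4, whereas every other pair of neighbours in this order overlapped. The cortex thus contained 2 of the 4 Id transcripts, Id2 and Id4, at higher levels per length than Id1 and Id3 in each of the 12 libraries.

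**Figure D1:**
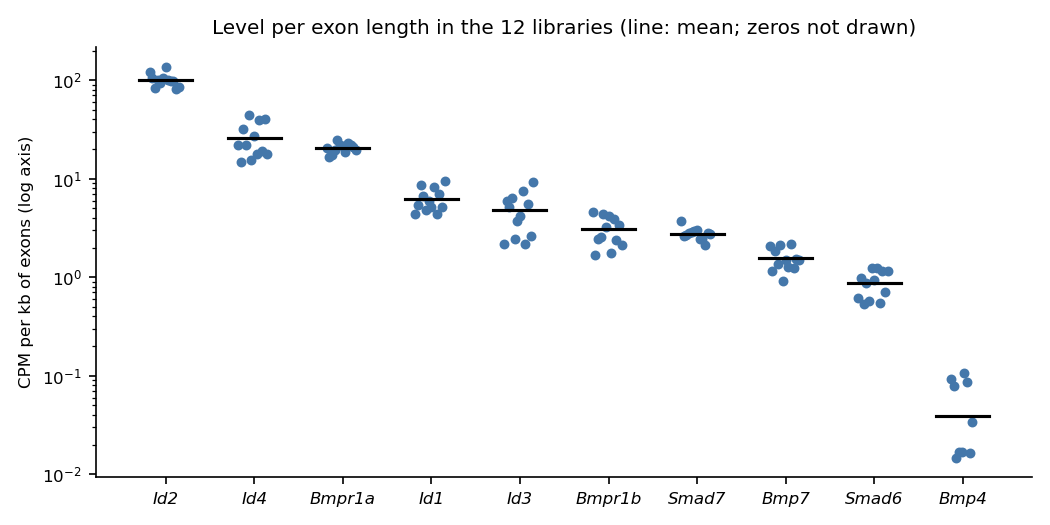
Level of each member per kilobase of exons (vertical log axis) in the 12 libraries (points), with the mean as a line and members in order of the mean. Id2 lies above all others at 82.3 to 137.6 CPM per kilobase, and Bmp4 lies below all others, with its 3 libraries at 0 not drawn.

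The ligands were low. Bmp4, a dorsal midline ligand (ENSMUSG00000021835.16, GRCm39 chromosome 14, 46620977 to 46628126), gave between 0 and 6 counts in a library. In all it had 13 counts in the 6 knockout and 15 in the 6 control libraries, that is 0.0783 CPM (95% exact Poisson interval 0.0417 to 0.134) and 0.0954 CPM (0.0534 to 0.157), intervals that cover counting error only. It did not pass the filter on low counts, so it was not tested, and no difference was detectable at this depth. Bmp7, which meninges and the dorsal midline are known to make (ENSMUSG00000008999.8, chromosome 2, 172709805 to 172782114), was at 8.24, 4.69 and 7.43 CPM in knockout rostral 5, 2 and 7 and at 5.48, 8.59 and 3.67 CPM in knockout caudal 5, 2 and 7. In control libraries it was at 5.99, 5.07 and 8.83 CPM (rostral 1, 3 and 9) and at 4.94, 6.16 and 6.00 CPM (caudal 1, 3 and 9). The genotypes overlapped throughout, and both the lowest and the second highest value came from knockout libraries.

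The 2 type I receptors differed in how steady they were. Bmpr1a, the receptor that is broadly present in the forebrain (ENSMUSG00000021796.16, chromosome 14, 34132691 to 34225298), ran from 104.9 CPM in knockout rostral 2 to 157.0 CPM in knockout caudal 2, and its standard deviation was 11.3% of the mean. Bmpr1b, its close relative (ENSMUSG00000052430.16, chromosome 3, 141542897 to 141875186), had a standard deviation of 34.0% of the mean. It was at 27.4, 9.96 and 14.6 CPM in knockout rostral 5, 2 and 7 and at 15.3, 26.2 and 19.1 CPM in knockout caudal 5, 2 and 7. In control libraries it was at 25.2, 10.6 and 23.3 CPM (rostral 1, 3 and 9) and at 14.3, 20.1 and 12.5 CPM (caudal 1, 3 and 9). The highest and the lowest Bmpr1b level both came from knockout libraries labelled rostral, and all 4 groups overlapped.

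Of the inhibitory Smads, Smad6, which acts mainly on BMP receptors (ENSMUSG00000036867.8, chromosome 9, 63860358 to 63929341), was low, at 1.98, 3.11 and 1.71 CPM in knockout rostral 5, 2 and 7 and at 2.83, 1.85 and 3.94 CPM in knockout caudal 5, 2 and 7. In control libraries it was at 3.02, 4.004 and 1.73 CPM (rostral 1, 3 and 9) and at 3.66, 2.25 and 3.69 CPM (caudal 1, 3 and 9). Smad7, which also restrains transforming growth factor beta receptors (ENSMUSG00000025880.12, chromosome 18, 75500600 to 75529006), was at 16.97, 11.9 and 12.1 CPM in knockout rostral 5, 2 and 7 and at 12.6, 13.1 and 13.2 CPM in knockout caudal 5, 2 and 7. In control libraries it was at 13.6, 11.02 and 10.99 CPM (rostral 1, 3 and 9) and at 9.51, 12.6 and 12.3 CPM (caudal 1, 3 and 9). The highest Smad7 level came from a knockout and the lowest from a control library, with overlap between them.

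The Id genes fell into an abundant pair and a scarce pair. Id2, which in cortex also marks neurons of particular layers and areas (ENSMUSG00000020644.10, chromosome 12, 25143798 to 25147139), lay between 201.8 and 292.4 CPM in knockout libraries and between 200.8 and 335.5 CPM in control libraries. Id4, a gene of neural progenitors and astrocytes (ENSMUSG00000021379.3, chromosome 13, 48414704 to 48419502), was at 83.9, 57.1 and 122.5 CPM in knockout rostral 5, 2 and 7 and at 85.4, 169.3 and 59.1 CPM in knockout caudal 5, 2 and 7. In control libraries it was at 104.6, 69.1 and 150.6 CPM (rostral 1, 3 and 9) and at 73.4, 156.1 and 68.8 CPM (caudal 1, 3 and 9). Id1, which endothelial cells and astrocyte-lineage progenitors express (ENSMUSG00000042745.10, chromosome 2, 152578171 to 152579330), lay between 5.05 and 9.91 CPM in knockout libraries and between 5.07 and 11.1 CPM in control libraries. Id3, with a similar range of cell types (ENSMUSG00000007872.4, chromosome 4, 135870808 to 135873066), was the least steady of the tested members, with a standard deviation of 48.0% of the mean. It was at 3.88, 10.7 and 9.26 CPM in knockout rostral 5, 2 and 7 and at 11.4, 4.39 and 6.74 CPM in knockout caudal 5, 2 and 7. In control libraries it was at 7.44, 13.3 and 3.93 CPM (rostral 1, 3 and 9) and at 9.93, 4.74 and 16.8 CPM (caudal 1, 3 and 9). Both genotypes therefore held libraries with Id3 under 5 CPM and libraries with it over 10 CPM.

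The DNA just upstream of the start sites is shown for 3 Id genes and for Smad6. They are the known targets of the pathway among the members searched. Sequences are from RefSeq (build GRCm38.p6, which is not the build of the counts). Each is 250 bases before the start, 5′ to 3′ on the gene's strand. Windows of 7 of the 10 members were searched. No entry was available for Id1 and Bmp7, and Smad7 was left out of the search by choice. Capitals mark GGCGCC, a GC-rich Smad motif that reads the same on both strands, and GTCT, the core Smad-binding letters, searched on both strands (AGAC on the other) and with no overlap between the 2 motifs in these windows.
Id2, chr12:25096093-25096342, minus strand: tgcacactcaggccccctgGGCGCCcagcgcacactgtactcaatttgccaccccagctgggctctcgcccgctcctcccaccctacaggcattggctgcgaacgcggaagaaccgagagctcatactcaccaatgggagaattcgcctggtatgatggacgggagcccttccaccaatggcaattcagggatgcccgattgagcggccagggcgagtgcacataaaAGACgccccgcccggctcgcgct
Id3, chr4:136143572-136143821, plus strand: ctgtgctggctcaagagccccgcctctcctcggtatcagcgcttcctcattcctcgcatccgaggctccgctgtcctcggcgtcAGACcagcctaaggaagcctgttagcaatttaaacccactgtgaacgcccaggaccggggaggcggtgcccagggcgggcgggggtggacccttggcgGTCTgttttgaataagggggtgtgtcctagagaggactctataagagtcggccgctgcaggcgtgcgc
Id4, chr13:48260866-48261115, plus strand: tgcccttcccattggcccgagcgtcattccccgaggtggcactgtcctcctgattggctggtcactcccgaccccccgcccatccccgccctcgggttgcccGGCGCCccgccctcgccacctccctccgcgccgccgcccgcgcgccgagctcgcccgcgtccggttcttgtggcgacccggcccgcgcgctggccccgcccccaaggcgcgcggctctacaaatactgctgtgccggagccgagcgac
Smad6, chr9:64022060-64022309, minus strand: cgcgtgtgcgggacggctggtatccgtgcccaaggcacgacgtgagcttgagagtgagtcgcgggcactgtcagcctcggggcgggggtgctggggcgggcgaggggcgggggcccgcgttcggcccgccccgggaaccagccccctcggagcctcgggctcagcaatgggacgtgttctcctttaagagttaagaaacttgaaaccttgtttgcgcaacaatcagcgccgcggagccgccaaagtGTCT
Id2 and Id4 each had 1 GGCGCC, and Id3 and Smad6 had none. Among all 32851 RefSeq windows of the same length, 9.59% held GGCGCC and 82.9% held GTCT on either strand. Of the 9 windows of the 7 members searched, 3 held GGCGCC (Id2, Id4 and Bmpr1a) and 7 held GTCT. Bmpr1b had more than 1 window, in part overlapping, so the 9 windows are not separate promoters. These matches describe letters in a short window and not binding.

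To ask whether loss of Egfr changed the pathway over the whole cortex, the counts of both libraries titled for 1 embryo were summed, giving 3 knockout and 3 control sums. No member passed an adjusted p of 0.05 by edgeR's quasi-likelihood test: 0 of the 9 tested were called, against 0.0317% of all 18937 genes tested. With an unadjusted p under 0.05 there was 1 member, Smad7, against 3.4% of all genes, and DESeq2 called 0 of 9. In single libraries, 6 against 6, no member's genotypes were separate, against 0.127% of all genes. The groups of sums did not overlap for 2 of the 9, Smad7 (higher) and Id3 (lower), against 8.3% of all genes (3.07% higher and 5.22% lower), and the members' median log2 fold change was -0.03, against -0.00067 over all genes.

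Smad7 was at 14.7, 12.5 and 12.6 CPM in the sums of knockout embryos 5, 2 and 7 and at 11.6, 11.9 and 11.6 CPM in those of control embryos 1, 3 and 9. All 3 knockout sums were above all 3 control sums, by means of 13.3 ± 1.22 against 11.7 ± 0.159 CPM (SD, n = 3 each). The log2 fold change was 0.21 (SE 0.087, 95% interval 0.012 to 0.41, adjusted p = 0.9999 by edgeR), and the exact two-sided permutation p was 0.1, the smallest that 3 against 3 can give. Over 15 alternatives the log2 fold change ran from 0.13 to 0.26 with an adjusted p of 0.368 or more.

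Id3 was at 7.83, 7.70 and 8.06 CPM in the sums of knockout embryos 5, 2 and 7 and at 8.68, 8.86 and 10.2 CPM in those of control embryos 1, 3 and 9, so all 3 knockout sums were below all 3 control sums. The means were 7.86 ± 0.180 and 9.26 ± 0.858 CPM (SD, n = 3 each), and the log2 fold change was -0.21 (SE 0.10, 95% interval -0.44 to 0.022, adjusted p = 0.9999 by edgeR; exact two-sided permutation p = 0.1). The small SD of the knockout sums hides single libraries between 3.88 and 11.4 CPM, since each sum joined libraries of different Id3 level. Treating the 12 libraries as separate samples, the SE rose to 0.39 around a log2 fold change of -0.23. It was -0.04 without the 2 control libraries that held Xist and Y transcripts together, and -0.50 without the 2 libraries highest in mitochondrial share.

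For the other 7 members the sums of the genotypes overlapped. The log2 fold changes were 0.06 for Bmp7 (95% interval -0.28 to 0.39), -0.03 for Bmpr1a (-0.16 to 0.09) and 0.08 for Bmpr1b (-0.17 to 0.34). Smad6 had -0.21 (-0.53 to 0.10), Id1 -0.10 (-0.44 to 0.24), Id2 0.04 (-0.19 to 0.28) and Id4 -0.10 (-0.39 to 0.19). In simulated sums, 92% of genes changed 2-fold were called, and none of these intervals reached a 2-fold change in either direction. The simulation used the spread of the same sums. Because the sums join libraries whose transcripts do not match as parts of 1 embryo, both rest on the spread between sums and not between embryos. For these members the intervals within 1 labelled part were wider. In rostral libraries they reached a 2-fold change for Smad6 (-1.18 to 0.54), Bmpr1b (-1.22 to 0.91) and Id4 (-1.15 to 0.61). In caudal libraries they did so for Id4 (-1.11 to 1.27). Those of Bmp7, Bmpr1a, Id1 and Id2 did not in either part. A fit of the 12 libraries with the log2 CPM of Nr2f1 as a covariate gave 0.25 for Bmpr1b (SE 0.15), -0.32 for Smad6 (SE 0.16), -0.34 for Id3 (SE 0.19) and 0.24 for Smad7 (SE 0.098), none of them called.

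**Figure D2:**
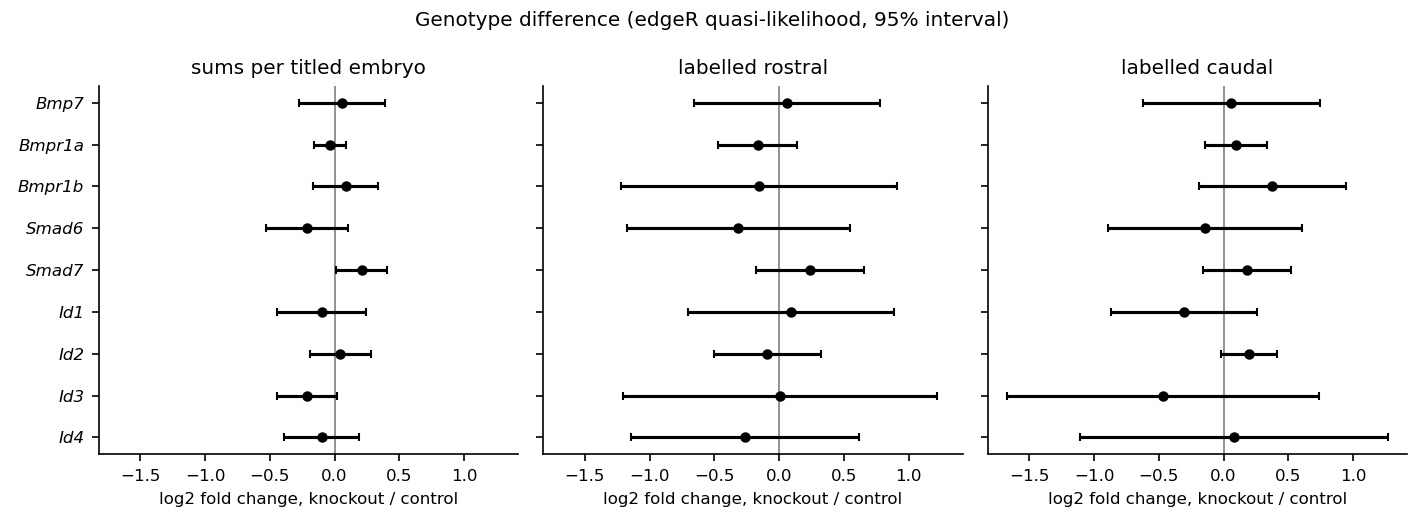
Log2 fold change, knockout over control, of the 9 tested members with 95% intervals, in the titled sums, the libraries labelled rostral and those labelled caudal (3 against 3 in each). The intervals of Id3, Id4 and Bmpr1b are far wider in single libraries than in sums, and only the interval of Smad7 in the sums lies wholly on 1 side of 0.

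Within the libraries of each labelled part the members were not called either. In libraries labelled rostral 0 of 9 were called by edgeR, against 0% of 17131 genes, and 0 of 9 had an unadjusted p under 0.05 (1.05% of all genes) or groups that did not overlap (6.21% of all genes). In libraries labelled caudal 0 of 9 were called by edgeR, against 0.0472% of 16964 genes, 0 of 9 had an unadjusted p under 0.05 (5.13% of all genes), and 0 of 9 had groups that did not overlap (10.1% of all genes). DESeq2 called 0 of 9 in each part. The log2 fold change of Id3 was 0.0054 (SE 0.51) in rostral and -0.47 (SE 0.51) in caudal libraries, that of Id4 -0.27 (SE 0.37) and 0.08 (SE 0.49), and that of Bmpr1b -0.16 (SE 0.45) and 0.38 (SE 0.24). That of Smad7 was 0.24 (SE 0.18) and 0.18 (SE 0.15). A test of the difference between the parts, the interaction of genotype and labelled part, called 0 of 9 members by edgeR (0% of 17734 genes, with 2.74% at an unadjusted p under 0.05 and 0 members), and its log2 values ran from -0.47 for Id3 to 0.54 for Bmpr1b.

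Caudal libraries were compared with rostral ones as labelled, over both genotypes. By edgeR 0 of 9 members were called, against 0% of 17734 genes, while 0 of 9 had an unadjusted p under 0.05, against 9.84% of all genes, and 0 of 9 had groups that did not overlap, against 0.361%. Bmpr1a had a log2 difference, caudal over rostral, of 0.16 (SE 0.090) and Smad6 of 0.27 (SE 0.25), the highest of the 9, and Bmp7 had the lowest at -0.18 (SE 0.22). Nr2f1 itself had 0.41 (SE 0.59, adjusted p = 0.861 by edgeR), so the labels did not order this caudal gene.

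The levels of 6 members are set beside Nr2f1 in the same library, a choice made after their values were seen. Bmp4, Bmpr1a, Smad7 and Id2 are not shown in this way, and the share of all genes that vary with Nr2f1 was not computed, so nothing here is particular to these 6. The 3 libraries with the highest Id4, knockout caudal 2 (169.3 CPM), control caudal 3 (156.1 CPM) and control rostral 9 (150.6 CPM), were the 3 with the lowest Nr2f1, at 71.3, 58.6 and 50.7 CPM. The same 3 also had the 3 highest ventral forebrain marker sums, at 999, 1254 and 932 CPM. Knockout rostral 7, next in Id4 (122.5 CPM), was next in that sum as well (742 CPM), with Nr2f1 at 205 CPM. Control caudal 1 had a higher sum than control rostral 1 (509 against 485 CPM) but a lower Id4 (73.4 against 104.6 CPM). The part of cells with these markers, in ventral tissue or in the cortex, in the Id4 values was not tested. The 5 libraries with the highest Bmpr1b, at 20.1 to 27.4 CPM, were the 5 with the lowest Nr2f1, at 50.7 to 97.1 CPM. Bmp7 was lowest, at 3.67, 4.69, 4.94 and 5.07 CPM, in knockout caudal 7, knockout rostral 2, control caudal 1 and control rostral 3, where Nr2f1 was at 348, 340, 343 and 348 CPM. The library with the highest Nr2f1, control caudal 9 (373 CPM), had Bmp7 in the middle of the range at 6.00 CPM, close to the 5.99 CPM of control rostral 1, where Nr2f1 was at 78.9 CPM.

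For Smad6, Id3 and Id1 the high levels lay in other libraries. The 4 libraries with the highest Smad6, at 3.66 to 4.004 CPM, were the 4 with the highest Nr2f1, at 343 to 373 CPM. Id3 was highest in control caudal 9 (16.8 CPM), where Nr2f1 was highest as well (373 CPM), and lowest in knockout rostral 5, control rostral 9, knockout caudal 2 and control caudal 3 (3.88 to 4.74 CPM), where Nr2f1 was at 97.1 CPM or less. Knockout caudal 7 did not follow this order: its Nr2f1 was the third highest (348 CPM), but its Id3, at 6.74 CPM, was below the 7.44 CPM of control rostral 1 (Nr2f1 78.9 CPM). Id1 was highest in control caudal 9 (11.1 CPM), but its second highest value, 9.91 CPM, came from knockout rostral 7, where Nr2f1 was at 205 CPM. These are descriptions of 12 libraries that share embryos, and no test was made of them.

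**Figure D3:**
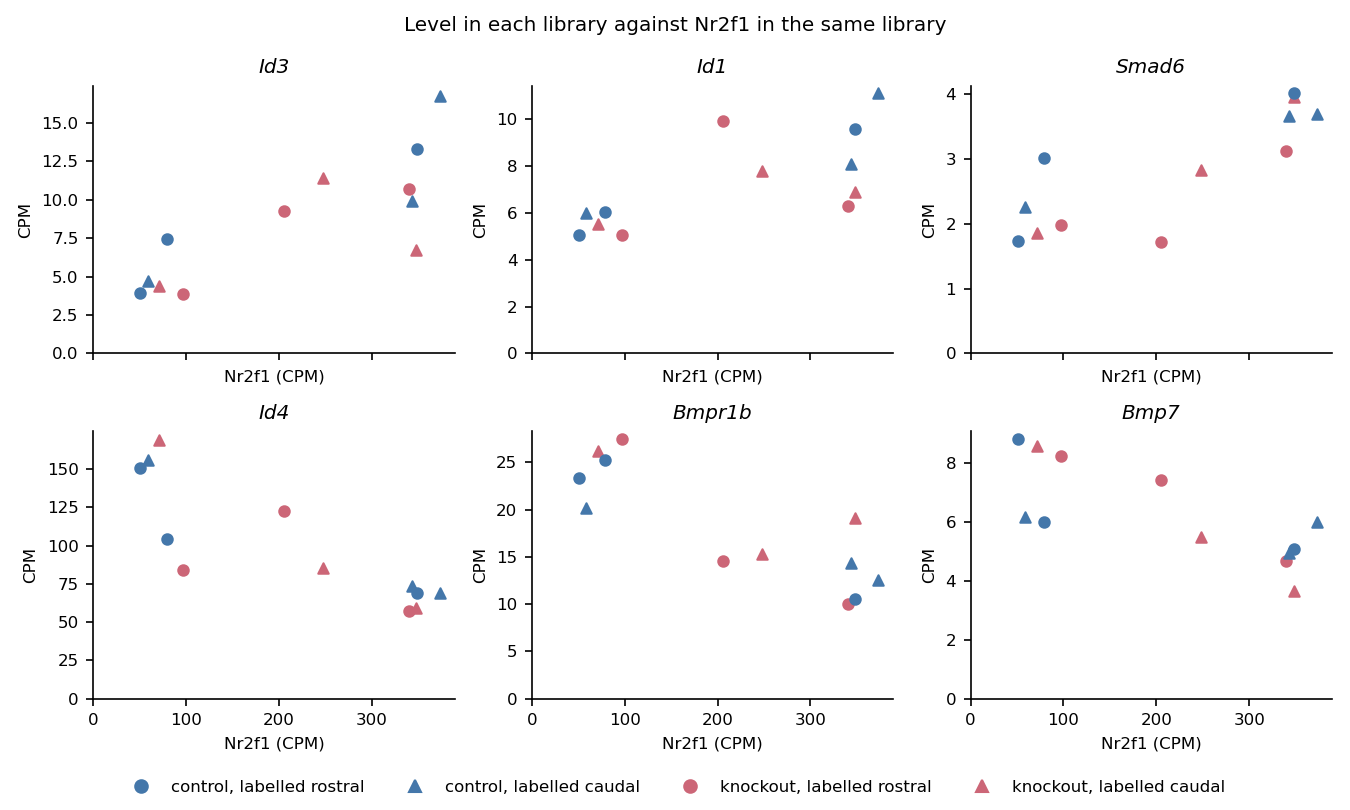
CPM of 6 members (vertical axes) against CPM of Nr2f1 in the same library (horizontal axes), for 12 libraries (blue control, red knockout; circles labelled rostral, triangles labelled caudal). The 3 highest Id4 points have the 3 lowest Nr2f1 levels and the 4 highest Smad6 points the 4 highest, while Bmp7 in control caudal 9 (6.00 CPM) and Id3 in knockout caudal 7 (6.74 CPM) lie apart from the other points at high Nr2f1.

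Markers of vessels and of the cortical edge also differed between libraries. All 12 endothelial markers were detected in every library, and summed to 98.2 to 236 CPM in knockout and 113 to 247 CPM in control libraries. The library with the highest sum, control caudal 9, had the highest Id1 and Id3, and the second highest, knockout rostral 7, had the second highest Id1. Not all libraries followed this order. Knockout rostral 5 had a sum of 192 CPM, above both genotype medians (169 and 180 CPM). Its Id1 (5.05 CPM) and Id3 (3.88 CPM) were the lowest of the 12 libraries. Knockout rostral 7 had the highest blood, mural and microglia marker sums, at 12354, 223 and 174.6 CPM. The meningeal fibroblast sum was highest in control caudal 9 (75.95 CPM) and lowest in knockout rostral 5 (19.8 CPM). In control caudal 3 it was 38.4 CPM, with Id3 at 4.74 CPM. In the libraries labelled caudal, 12 of 12 endothelial markers had a negative log2 fold change, knockout over control (50.4% of all genes, list median -0.43, 0 called), beside -0.31 for Id1 and -0.47 for Id3. In those labelled rostral 12 of 12 had a positive one (49.8% of all genes were negative, list median 0.29, 0 called), beside 0.09 for Id1 and 0.0054 for Id3. Only knockout rostral 7 (236 CPM) exceeded all rostral controls (113 to 201 CPM) in the endothelial sum. Such signs were not particular to endothelial markers. In rostral libraries 8 of 8 tested astrocyte, 8 of 8 microglia, 6 of 6 mural and 6 of 6 meningeal fibroblast markers were positive. All 8 cortical excitatory neuron markers were negative. In caudal libraries 6 of 6 meningeal fibroblast, 6 of 6 blood and 12 of 12 ventral forebrain markers were negative. Markers of the cortical hem, the dorsal midline source of BMPs, summed to 73.1 to 140.3 CPM in knockout and 72.5 to 131.6 CPM in control libraries, but its defining gene Wnt3a was at 0 in 5 of 12 libraries and Gdf7 in 6. Choroid plexus markers summed to 10.4 to 22.5 and 10.7 to 72.1 CPM, with Ttr at 0 in 1 library, Folr1 in 5 and Kcne2 in 6, and meningeal fibroblast markers to 19.8 to 50.9 and 26.8 to 75.95 CPM, with Dcn and Lum each at 0 in 1 library, Slc6a13 in 2 and Aldh1a2 in 4. In the titled sums 8 of 9 astrocyte markers had a positive log2 fold change (median 0.17, 0 called). Of the 9, 3 had an unadjusted p under 0.05 (3.4% of all genes). For 2 the knockout sums lay above all control sums (3.07% of all genes). Of 9 radial glia markers 6 were positive in the sums (median 0.13), with 0 called and 0 at an unadjusted p under 0.05. In caudal libraries 4 of 8 tested astrocyte markers were positive. Fewer cells of a type and less RNA per cell cannot be told apart in these bulk libraries, and the part of these cell types in the Id and Bmp values was not tested.

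The genes most like each member over the 12 libraries were found by Pearson's r of log2(CPM + 1), as a description with no test. Id4 was most like Fam222a (r = 0.972), Syt6 (r = 0.971) and Nudt4 (r = 0.971), and Bmpr1b was most like Scrn1 (r = 0.973), Fbxo3 (r = 0.966) and the axon guidance receptor gene Robo2 (r = 0.964). Id3 was most like Creb3l1 (r = 0.950), Tubd1 (r = 0.945) and the integrin gene Itga7 (r = 0.944). Id1 was most like the endothelial and haematopoietic regulator gene Lmo2 (r = 0.957), then Arhgef6 (r = 0.933) and Pdpn (r = 0.927). Bmp7 was most like the astrocyte enzyme gene Aldh1l1 (r = 0.919), Plekhh1 (r = 0.911) and H19 (r = 0.907). Smad6 was most like Foxo6 (r = 0.934), Tiam2 (r = 0.918) and Smim15 (r = 0.918), and Bmpr1a was most like Fam98b (r = 0.981), Pphln1 (r = 0.978) and Sin3a (r = 0.970). Id2 was most like Mycn (r = 0.912), Dok5 (r = 0.897) and Pnldc1 (r = 0.891), and Smad7 was most like Rab11b (r = 0.864), Adamts2 (r = 0.858) and Zfp114 (r = 0.810). The 3 for Bmp4, Tafa1 (r = 0.921), Stard3nl (r = 0.911) and Abcg2 (r = 0.905), rest on 0 to 6 Bmp4 counts, and nothing is read from them.

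The rest of the pathway was read from 6 lists in the titled sums, by edgeR. Of 9 tested other ligands of 13 listed, 0 were called (5 negative, against 50.3% of all genes, median log2 fold change -0.11). Gdf11 and Inhbb were the most abundant of these, at 18.8 to 35.4 and 36.4 to 62.8 CPM over the 12 libraries, and Bmp5 and Gdf11 had the smallest p, with log2 fold changes of -0.43 (SE 0.28) and -0.11 (SE 0.088). Of 9 other receptors and co-receptors 0 were called (7 negative, median -0.05). The type II receptor gene Bmpr2 ran from 201 to 340 CPM, and the smallest p belonged to the endothelial receptor gene Acvrl1 (-0.15, SE 0.14) and the co-receptor gene Rgma (-0.09, SE 0.086). Of 6 other Smads 0 were called (3 negative, median -0.0025), and Smad3 (-0.13, SE 0.071) and the shared partner Smad4 (-0.05, SE 0.053) had the smallest p. For 1 of the 6 the knockout sums lay below all control sums, where 5.22% of all genes did. The BMP-specific Smad1 and Smad5 ran from 62.0 to 73.8 and from 211 to 297 CPM, while Smad9 stayed at 0.77 CPM or below.

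Secreted modulators and intracellular ones showed no called gene. Of 14 tested antagonists and other extracellular modulators 0 were called (6 negative, median 0.02). Grem1, a secreted BMP antagonist, had a log2 fold change of 0.38 (SE 0.15) with sums that did not overlap, and Fstl1 one of 0.11 (SE 0.072). Of 14 tested intracellular modulators and targets, of 16 listed, 0 were called (11 negative, median -0.09). Skil, a Smad co-repressor, had -0.15 (SE 0.060) and Atoh8, a BMP-induced bHLH gene, -0.44 (SE 0.23), both with sums that did not overlap. The adjusted p of these 4 genes was 0.9999 by edgeR. Sums did not overlap for 1 of the 14 extracellular and 2 of the 14 intracellular genes, against 8.3% of all genes.

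Of 15 bHLH genes whose products Id proteins or their partners meet, 3 were called lower, against 0.0211% of all genes, and 0 higher (8 negative, median -0.02). The list was chosen with earlier calls of these 3 genes known. They are also 3 of the 4 genes called lower among all genes, so the share tells nothing about Id partners as a set. They were Olig2, Olig1 and Hes5, with log2 fold changes of -1.33 (SE 0.12), -1.26 (SE 0.12) and -1.23 (SE 0.11), and adjusted p of 0.00752, 0.0084 and 0.0084 by edgeR. Olig1 and Olig2 specify oligodendrocyte precursors and Hes5 is a Notch effector of progenitors. Their log2 fold changes stayed between -1.45 and -1.10 over 15 alternatives, but the calls did not all hold. Olig2 was called in 12 of the 15, Olig1 in 10 and Hes5 in 10. With the 12 libraries as separate samples none of the 3 passed, at adjusted p of 0.0888 (Olig2), 0.255 (Olig1) and 0.255 (Hes5) by edgeR. Without knockout embryo 5 Olig1 and Hes5 had an adjusted p of 0.0785 by edgeR, and without control embryo 1 Hes5 had 0.0648. Olig1 and Olig2 are also 2 of the 8 oligodendrocyte precursor markers listed, and the values of the whole list are given beside them. In the sums 7 of 8 markers had a negative log2 fold change (median -0.34), with Olig1 and Olig2 the 2 called. In libraries labelled caudal 8 of 8 were negative (median -0.84), 7 had an unadjusted p under 0.05 (5.13% of all genes) and 6 had groups that did not overlap (10.1% of all genes), but 0 were called by edgeR. Their summed level there was 43.6 to 76.6 CPM in knockout and 101.1 to 143.7 CPM in control libraries. In libraries labelled rostral 4 of 8 were negative (median 0.09) and 0 were called, and the sums were 62.5 to 110.6 and 92.4 to 101.1 CPM. Pdgfra, the growth factor receptor gene of these precursors, had a log2 fold change of -0.68 (SE 0.27) in caudal and 0.18 (SE 0.20) in rostral libraries, and Cspg4, Gpr17 and Lhfpl3 were likewise negative in caudal and positive in rostral ones. The other 4 markers, Olig1, Olig2, Sox10 and Bcas1, were negative in both. The interaction of genotype and labelled part called 0 of the 8, with 5 at an unadjusted p under 0.05 (2.74% of all genes). The part of this cell type in the bHLH values was not tested. The E proteins and proneural genes of the list, among them Tcf3 at 108 to 151 CPM and Tcf12 at 226 to 329 CPM, were not called. In the sums 4 of the 15 bHLH genes, the 3 called ones included, had an unadjusted p under 0.05 (3.4% of all genes). For 4 of the 15 the knockout sums lay below all control sums (5.22% of all genes).

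**Figure D4:**
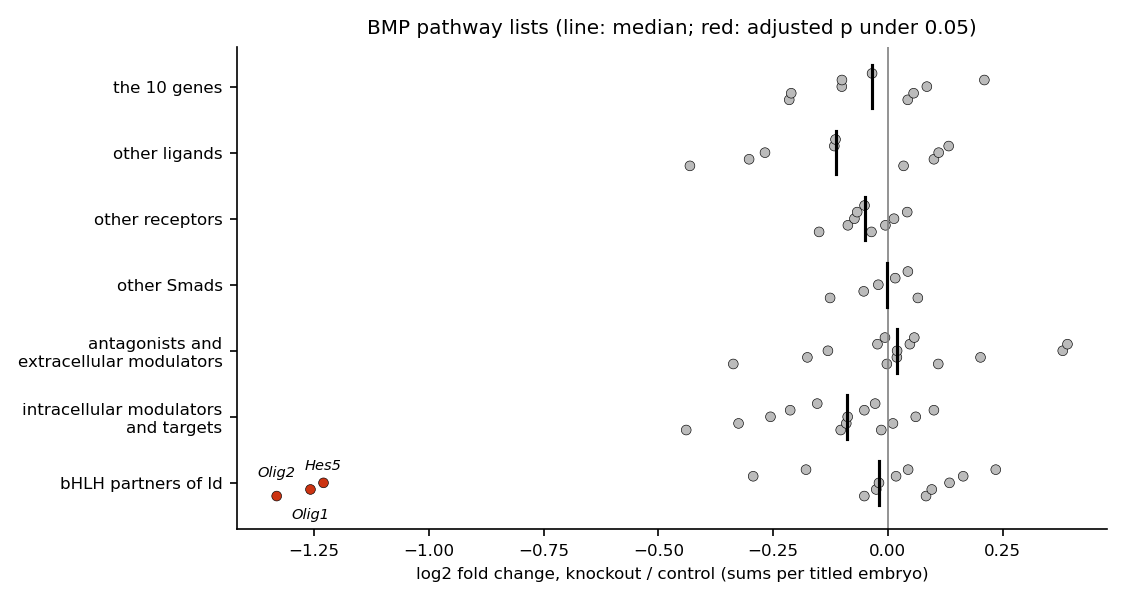
Log2 fold change, knockout over control, in the titled sums (horizontal axis) for the 10 genes (9 tested) and 6 lists of pathway genes. Each point is a gene, lines are medians, and red marks the 3 genes called, Olig2, Olig1 and Hes5, while all other points lie between -0.44 and 0.39.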

How the data were processed

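Per the submitters' processing notes reads were processed with STAR 2.7.8a and featureCounts 2.0.3 on GRCm39. Genes were those of GENCODE M28, per the file headers, which also record counting on the reverse strand, with multi-mapping and overlapping fragments shared out as fractions. So the deposited values are estimated counts (expected counts) without normalization, and near-identical copies of a gene share them.

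Rounded counts went into edgeR 4.0.16 under R 4.3.3 (TMM, filterByExpr, robust quasi-likelihood fits, Benjamini-Hochberg adjusted p under 0.05 over all genes tested), with DESeq2 1.42.0 and limma 3.58.1 as alternatives. SE is the size of the log2 fold change over the square root of F. CPM are scaled by library totals of the deposited counts. Tests were checked on simulated counts: of 200 genes changed 2-fold, 92% were called in the sums, 55.5% in rostral, 70% in caudal libraries, 90% in the comparison of parts and 34.5% in the interaction. Named are all 10 members, for each pathway list the called genes or the 2 with the smallest p, and for each member the 3 genes most like it at a mean of at least 1 CPM. Gdf11, Inhbb, Bmpr2, Smad1, Smad5, Smad9, Tcf3, Tcf12, Pdgfra, Cspg4, Gpr17 and Lhfpl3 were added for their roles after their values were seen. Sox10 and Bcas1 were added to complete the oligodendrocyte precursor list. Members, lists and alternatives were chosen with earlier results of these data known.

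Each title names an embryo by number, shared by its parts. Over 1000 abundant autosomal genes, deviations from the group means of titled partners correlated at -0.706 to 0.176, over 0.1 in 1 of 6 pairs, against -0.410 to 0.779 for the 12 other pairs. The limma-voom fit with the titled embryo as a random effect had a consensus correlation of -0.291. A negative value lowers the SE of a genotype difference, and Olig1, Olig2 and Hes5 were called in that fit. The pairing rests on the titles alone.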

Additional observations from a re-analysis of the deposited data

Results flagged for a closer look

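Each member's CPM was checked for a library apart from the other 5 of its genotype. Of 20 groups of 6 libraries, 3 held one, where chance flags about 1 in 20. Control rostral 9 was apart for Bmp7, at 8.83 CPM, where the other control libraries lay at 6.16 CPM or below. Knockout rostral 5 was apart for Smad7, at 16.97 CPM, with the other knockout libraries at 13.2 CPM or below, and it is part of the highest knockout sum, 14.7 CPM. Control rostral 1 was apart for Id2, at 335.5 CPM, with the next control library at 244.2 CPM. These 3 libraries had Nr2f1 at 50.7, 97.1 and 78.9 CPM, among the 5 lowest of the 12, and the part of that in the 3 values was not tested.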

How the results depend on the processing

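No alternative called a member. Of 495 recomputed member values, 432 kept their sign and 63 changed it, none of them past the threshold. The count of all genes called moved more. In the sums it was 6, and 32 by DESeq2, 110 without the filter on low counts, 3 with 12 libraries as separate samples, 10 by limma-voom with the titled embryo as a random effect, 10 without the 2 control libraries with Xist and Y transcripts, 3 without the 2 libraries highest in mitochondrial share, and 3 to 21 with 1 embryo left out (3 without knockout 5, 10 without control 3, 21 without knockout 2). In caudal libraries it was 8, and 77 by DESeq2, 57 without the filter, and 2 to 8 with 1 library left out (2 without knockout 5, 4 without knockout 7, 5 without control 9). From 0, it moved to 4 by DESeq2 and 2 without the filter in rostral libraries, to 56 by DESeq2 in the comparison of parts, and to 1 by DESeq2 and 0 to 6 with 1 embryo left out in the interaction (1 without control 1, 6 without control 9). With the titled embryo as a replicate block, 0 genes were called in the comparison of parts and 0 in the interaction, and the log2 value of Bmpr1b became 0.045 and that of Bmp7 -0.084, respectively, each with another sign. The sign also changed for Id3 in rostral libraries, to -0.00049 without the filter and -0.11 with the other number in the titles as a block. In the sums it changed for Id4, to 0.079 with Nr2f1 as a covariate, for Bmp7 and Smad6, to -0.091 and 0.029 without the 2 control libraries named above, and for Bmpr1a, to 0.016 without the 2 mitochondria-rich ones. The causes were not tested. Log2 values of members whose sign changed with 1 embryo or library left out are given as ranges. In the sums they were Bmpr1b -0.016 to 0.16, Id2 -0.022 to 0.17, Id1 -0.28 to 0.012 and Bmp7 -0.032 to 0.22. In rostral libraries they were Bmp7 -0.11 to 0.35, Bmpr1b -0.63 to 0.12, Id3 -0.32 to 0.52, Id1 -0.25 to 0.39, Id2 -0.20 to 0.075 and Id4 -0.60 to 0.078. In caudal libraries they were Bmp7 -0.30 to 0.31, Smad6 -0.44 to 0.10, Id4 -0.45 to 0.58 and Id3 -0.89 to 0.058. In the comparison of parts they were Bmpr1b -0.28 to 0.18, Smad7 -0.095 to 0.057, Id3 -0.21 to 0.46, Id4 -0.25 to 0.35 and Id1 -0.069 to 0.30. In the interaction they were Smad7 -0.28 to 0.16, Bmp7 -0.58 to 0.33, Id3 -1.33 to 0.38, Id4 -0.42 to 1.09, Smad6 -0.31 to 0.71 and Id1 -0.88 to 0.039. Depth limits Bmp4, which had at most 6 counts in a library.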
